A study of Homo sapiens with 12 samples.

Results

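The 2 control groups of a pair of siRNA experiments in 769-P cells were compared: 6 of the 12 libraries of the series, 3 labelled siDRAIC-NC and 3 labelled sihnRNPA2B1-NC, taken by their labels alone. 769-P is an established human clear cell renal carcinoma line. All 12 libraries come from this line, grown in RPMI1640 medium with fetal bovine serum and antibiotics, per the labels, and none carries a further allele or drug. The series asks how the long non-coding RNA DRAIC acts through hnRNPA2B1, an RNA-binding protein, on IGF1R, a growth factor receptor. The other 6 libraries are labelled siDRAIC and sihnRNPA2B1, 3 of each, for small interfering RNAs named after those 2 genes. The labels leave unstated what NC stands for, the sequence of any siRNA, the time after transfection, and the passage, density and date of the cultures. Experiment, deposited table and control group coincide, so a difference between the cultures, between control treatments and between library batches cannot be told apart. The labels do not say that replicates are separate cultures, and p-values therefore measure only the spread between these libraries, which may be technical.

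Clear cell renal carcinoma arises from the kidney tubule and typically loses the function of VHL, which leaves hypoxia-inducible factors active. Cultured cells of 1 line also move between states. Amino acid shortage and other stresses raise translation of the transcription factor ATF4, which drives genes for amino acid synthesis, uptake and tRNA charging. E2F factors switch on replication genes when cells commit to S phase, and low sterol in the endoplasmic reticulum releases SREBP factors that drive cholesterol genes. Each of these programmes has well-known target genes, which are followed below with the markers of tubule identity.

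The libraries held 35221570 to 39921513 counts in siDRAIC-NC and 30798303 to 39362360 in sihnRNPA2B1-NC. Levels are counts scaled to the library total, as counts-per-million (CPM), given for replicates 1, 2 and 3 in that order or as the mean of 3 libraries, and 3 counts in a library correspond to 0.0751 to 0.0974 CPM. The siDRAIC-NC libraries were the more variable group, with a common biological coefficient of variation of 0.250 against 0.0740. The library labelled siDRAIC-NC replicate 1 stood apart. Its median absolute log2 difference over genes was 0.418 and 0.395 from the other siDRAIC-NC libraries but 0.224 from siDRAIC replicate 1 and 0.27 from siDRAIC replicate 3, while replicates 2 and 3 of siDRAIC-NC lay 0.203 apart. The 3 sihnRNPA2B1-NC libraries lay 0.126 to 0.178 apart. Between the control groups the 9 pairs lay 0.540 to 0.712 apart, beyond every distance within a group or within an experiment. Why siDRAIC-NC replicate 1 lies near siDRAIC libraries was not tested, and several counts below are given with and without it.

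**Figure D1:**
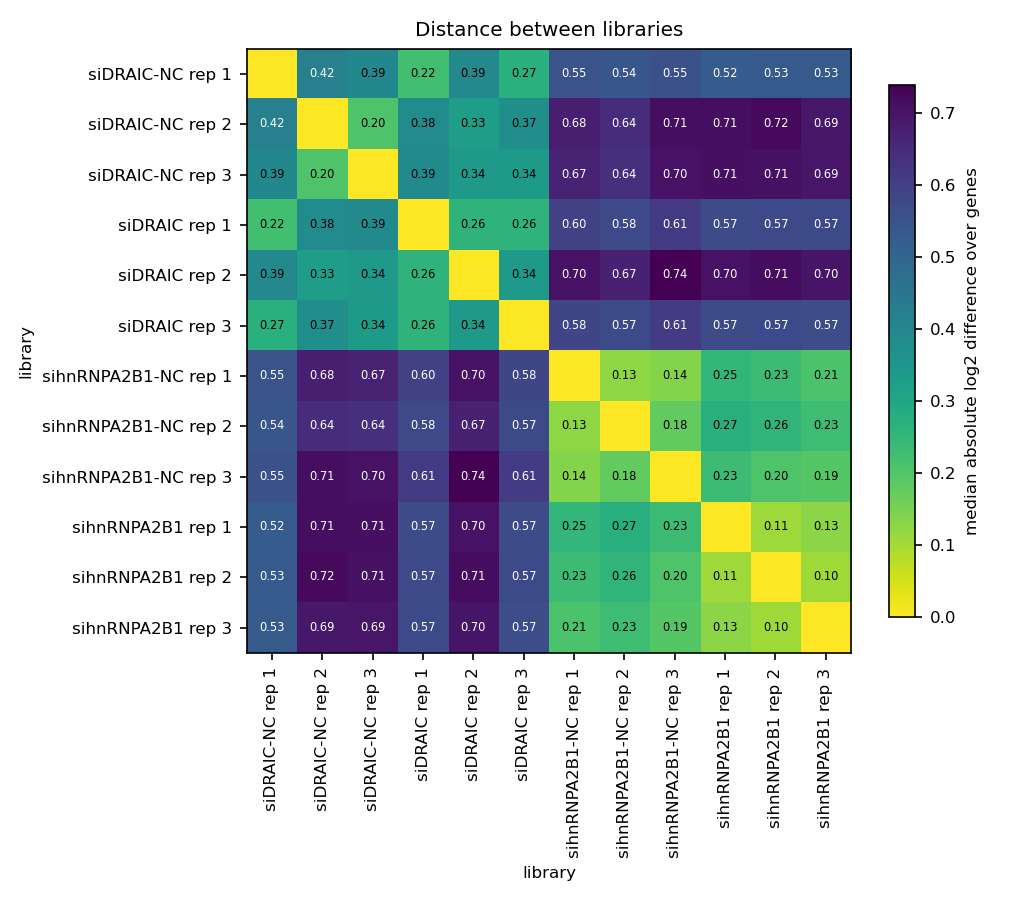
Median absolute log2 difference over genes between each pair of the 12 libraries, both axes listing the libraries by group and replicate and the colour giving the distance. The 6 libraries of each experiment form a block, the control groups lie 0.540 to 0.712 apart, and siDRAIC-NC replicate 1 is nearest to siDRAIC replicate 1, at 0.224.

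The difference between the controls reached 50.1% of the genes. edgeR's quasi-likelihood test with Benjamini-Hochberg adjustment called 7951 of 15868 tested genes at an adjusted p below 0.05. Of the tested genes 25.3% (4014) were higher in siDRAIC-NC and 24.8% (3937) were higher in sihnRNPA2B1-NC. Called genes at least 2-fold apart numbered 3948, with 2085 higher in siDRAIC-NC, and 1005 were at least 4-fold apart, 596 of them higher in siDRAIC-NC. Log2 fold changes are coded siDRAIC-NC over sihnRNPA2B1-NC throughout, so that negative values are higher in sihnRNPA2B1-NC, and their standard errors (SE) are approximate. The median over all tested genes was 0.01, with quartiles of -0.58 and 0.60. The 3 libraries of one group lay wholly above or below those of the other in 59.9% (9508) of the tested genes, and the separations given below are to be read against that share. Counts of called list members are likewise to be read against the 25.3% and 24.8% of tested genes called in each direction. Without siDRAIC-NC replicate 1 the calls rose to 10376 and held 7810 of the 7951 genes in the same direction, and with any other single library left out they numbered 5860 to 6727.

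The siRNA libraries of the same experiments share no library with the controls and gave a second measurement of the difference between experiments, though there the siRNAs differ as well. In them edgeR called 55.7% of 16200 tested genes, 28.1% higher in siDRAIC and 27.6% higher in sihnRNPA2B1. Of the 7951 control calls, 7838 were tested there, and 7676 (97.9%) had the same direction. A call was made for 6601 of these genes, in the same direction for 6592. The 9 in the opposite direction were LBH, TUBB1, HYDIN, STEAP1, C2orf92, ENC1, WNT9A, TINAGL1 and CCDC57, and each differed less than 4-fold between the controls. Across 15508 genes tested in both, Pearson's r of the log2 fold changes was 0.882 and Spearman's rho 0.882. Genes are not independent replicates, and each gene's 2 values come from libraries of the same pair of experiments, so these values describe the data and carry no test.

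**Figure D2:**
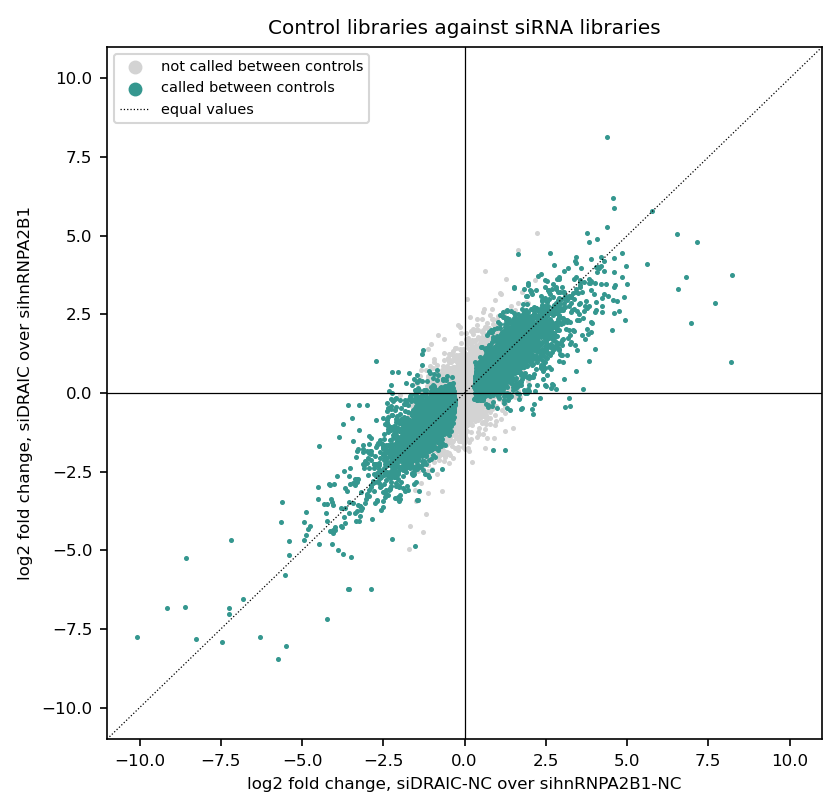
Log2 fold change of each gene between the control groups (x axis) against that between the siRNA groups of the same experiments (y axis), with genes called between the controls in colour and a dotted line at equal values. Points lie along the line, with r of 0.882 across 15508 genes, and 7676 of 7838 called genes keep their direction.

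The 3 genes of the series title came first, with their levels in the control libraries only, which do not check the siRNA labels. DRAIC had 2, 1 and 2 counts in siDRAIC-NC and 7, 3 and 7 in sihnRNPA2B1-NC. Together these were 5 against 17 counts, a ratio of 0.274 per library total, with an exact 95% interval of 0.0790 to 0.774 that covers counting error only. DRAIC was too rare to pass the expression filter, so no fitted test is given. HNRNPA2B1, which encodes a nuclear protein that binds RNA and can read m6A, gave 913, 704 and 721 CPM in siDRAIC-NC and 428, 396 and 435 CPM in sihnRNPA2B1-NC, 1.86-fold higher in siDRAIC-NC (log2 fold change 0.90, SE 0.11, edgeR adjusted p = 2.24e-04). The groups did not overlap, so the baseline of the gene targeted in one experiment was already apart between the 2 sets of controls. IGF1R gave 31.9, 20.1 and 26.1 CPM in siDRAIC-NC and 20.98, 23.7 and 23.2 CPM in sihnRNPA2B1-NC and did not pass the test (log2 fold change 0.20, SE 0.16, edgeR adjusted p = 0.31). Its groups overlapped, with siDRAIC-NC replicate 1 the highest library.

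The cells carried the transcription factors of the kidney tubule in both groups. PAX8, a tubule lineage factor, gave 464, 459 and 532 CPM in siDRAIC-NC and 504, 504 and 493 CPM in sihnRNPA2B1-NC and did not pass the test (log2 fold change -0.03, SE 0.12, edgeR adjusted p = 0.852; -0.26 and 0.0221 with GC and length trends removed). PAX2, its relative in the developing tubule, was 1.94-fold higher in siDRAIC-NC, at 61.01, 57.4 and 59.1 CPM in siDRAIC-NC and 29.3, 30.7 and 31.3 CPM in sihnRNPA2B1-NC (log2 fold change 0.97, SE 0.12, edgeR adjusted p = 1.92e-04). The groups overlapped for PAX8 and were separate for PAX2. CDH6, a tubule cadherin, was the identity gene furthest apart, with 122, 91.6 and 114 CPM in siDRAIC-NC and 8.83, 7.75 and 7.39 CPM in sihnRNPA2B1-NC, 13.7-fold higher in siDRAIC-NC (log2 fold change 3.78, SE 0.15, edgeR adjusted p = 1.43e-06). WT1 was also higher in siDRAIC-NC (17.7 CPM in siDRAIC-NC and 6.297 in sihnRNPA2B1-NC, log2 fold change 1.51), and LHX1 was lower (13.9 CPM in siDRAIC-NC and 23.1 in sihnRNPA2B1-NC, log2 fold change -0.74). HNF4A and EMX2 had 0 counts in all 6 libraries.

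Filament genes typical of epithelial and of mesenchymal cells were both expressed. Per kilobase of annotated exon, VIM (vimentin, the mesenchymal filament) was the highest of the identity genes in both groups, at 322 CPM per kb in siDRAIC-NC and 171 in sihnRNPA2B1-NC. KRT8, a keratin of simple epithelia, followed in siDRAIC-NC at 111 CPM per kb, against 54.0 in sihnRNPA2B1-NC. CDH2 (N-cadherin) stood at 66.3 and 63.1 CPM per kb, whereas CDH1 (E-cadherin) had 0 and 4 summed counts. VIM and KRT8 were higher in siDRAIC-NC on the CPM scale (log2 fold changes 0.93 and 1.06, edgeR adjusted p = 2.54e-04 and 6.56e-04), and CDH2 did not pass the test (log2 fold change 0.08). KRT7, a keratin of ducts, went the other way, with 5.34, 7.54 and 6.39 CPM in siDRAIC-NC and 36.6, 38.4 and 36.001 CPM in sihnRNPA2B1-NC (log2 fold change -2.50, SE 0.18, edgeR adjusted p = 1.34e-05). EPCAM and KRT19, also on the list, did not pass the test (log2 fold changes 0.60 and -1.44). KRT18, CD70 and SLC34A1 were called higher in siDRAIC-NC but each lost the call with single libraries left out. For SLC34A1 these were siDRAIC-NC replicates 2 and 3 (edgeR adjusted p = 0.063 and 0.0566). KRT18 lost it without siDRAIC-NC replicate 2 or 3 (edgeR adjusted p = 0.0618 and 0.0561) and without sihnRNPA2B1-NC replicate 1 or 3 (0.0561 and 0.0687). CD70 lost it without any library other than siDRAIC-NC replicate 1 (edgeR adjusted p = 0.0748 to 0.183).

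Several proximal tubule genes were near 0. LRP2 and ENPEP had 2 summed counts each in siDRAIC-NC and 0 in sihnRNPA2B1-NC, SLC22A6 had 0 in both, and MME had 60 and 11. CUBN, an endocytic receptor of the proximal tubule, was measurable at 4.14 CPM in siDRAIC-NC and 15.5 in sihnRNPA2B1-NC (log2 fold change -1.90, edgeR adjusted p = 9.31e-05). Of 34 identity genes, 24 passed the expression filter, of which 12 were called higher in siDRAIC-NC and 7 higher in sihnRNPA2B1-NC, with a median log2 fold change of 0.64 against 0.01 for all genes. VHL had 10 and 11 summed counts and CA9, a HIF product typical of clear cell tumours, had 2 and 0. NDUFA4L2, another HIF target typical of these tumours, had 0 and 8. The other 6 of the 9 listed genes tied to HIF in these tumours passed the expression filter, namely EGLN3, ANGPTL4, CD70, VEGFA, EPAS1 and HIF1A, with 2 called higher in siDRAIC-NC and 4 higher in sihnRNPA2B1-NC. CDKN2A, on chromosome 9p, had 0 to 6 counts in every control library, while its neighbour MTAP gave 18.9 CPM in siDRAIC-NC and 17.7 in sihnRNPA2B1-NC and did not pass the test (log2 fold change 0.11), though it was called with GC and length trends removed (0.67, edgeR adjusted p = 0.00602).

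Most markers of other cell types were low. Summed over 9 blood and immune markers the 6 libraries gave 0.306 to 1.503 CPM, with all 9 below 1 CPM on average in both groups and CD3E, HBB and HBA1 among those at 0. The 6 endothelial markers summed to 0.279 to 0.825 CPM and the 8 fibroblast markers to 2.53 to 6.59 CPM. Fibroblast markers were highest in siDRAIC-NC replicate 1. Of 6 hepatocyte markers, SERPINA1 and FGB were expressed, at 293 CPM in siDRAIC-NC and 53.9 in sihnRNPA2B1-NC and 133 CPM in siDRAIC-NC and 112 in sihnRNPA2B1-NC, and the other 4, ALB among them, stayed below 1 CPM. Of 6 neuronal markers, which summed to 38.9 to 67.9 CPM, NEFL made up most. Of 9 markers of other epithelia, which summed to 4.61 to 11.2 CPM, FOXA1 made up most. The part of other cells in the results was not tested. In bulk RNA, fewer cells with a transcript and less transcript per cell cannot be told apart, and this holds for every gene below.

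Per kilobase, 11 of the 12 most abundant genes of the control libraries were mitochondrial. MT-CO1, the catalytic core of cytochrome c oxidase, led with 14459 CPM per kb in siDRAIC-NC and 11095 in sihnRNPA2B1-NC. ACTG1, a cytoplasmic actin, was the 1 nuclear gene among them. The share of counts from the 13 mitochondrial mRNAs was 6.79% to 7.41% in siDRAIC-NC and 5.10% to 5.21% in sihnRNPA2B1-NC, and the ranges did not overlap. Of the 13, 11 were called higher in siDRAIC-NC and 0 higher in sihnRNPA2B1-NC, with a median log2 fold change of 0.55. MT-ATP8 was furthest apart (log2 fold change 1.27, SE 0.17, edgeR adjusted p = 3.58e-04) and MT-CYB nearest (log2 fold change 0.09, SE 0.11, edgeR adjusted p = 0.552). Of 31 nuclear-encoded subunits of the same complexes, 15 were called higher in siDRAIC-NC and 1 higher in sihnRNPA2B1-NC, with a median of 0.34. Without siDRAIC-NC replicate 1 the subunit counts were 22 and 3. With all control libraries their share called was 51.6%, near the 50.1% of all tested genes. Of all tested genes 25.3% were called higher in siDRAIC-NC. MT-CO1 lost its call without sihnRNPA2B1-NC replicate 1 (edgeR adjusted p = 0.0649) and without replicate 3 (0.056). Nuclear copies of mitochondrial genes are near-identical, so these levels are uncertain.

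**Figure D3:**
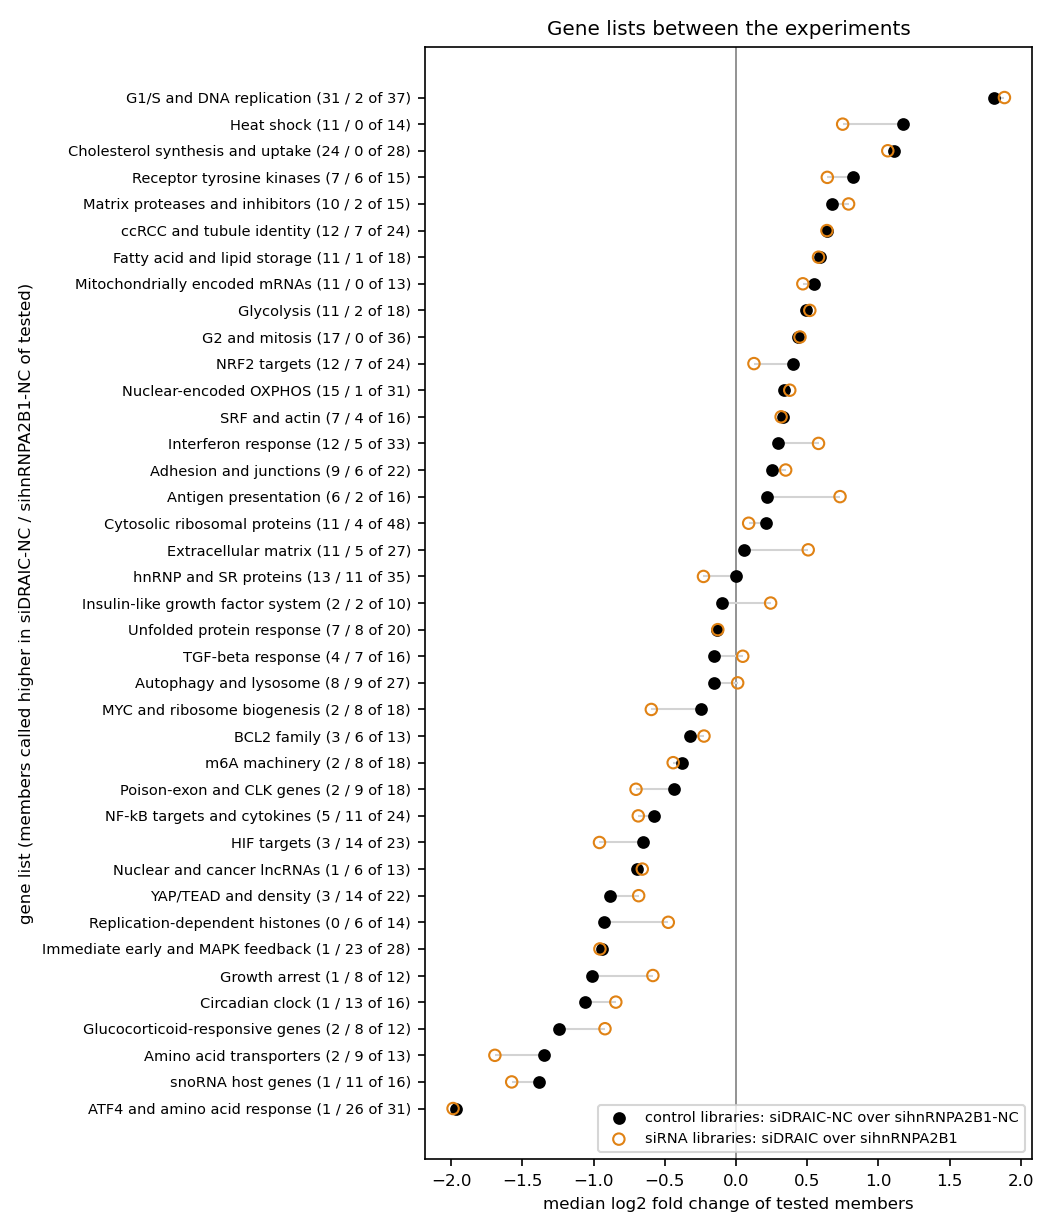
Median log2 fold change of gene lists with at least 10 tested members, between the controls (filled points) and between the siRNA libraries (open points). List names and the members called in each direction are on the y axis. The p53 target list has 20 tested members but is not drawn (median -0.79 between the controls). Replication, heat shock and cholesterol genes lie to the right (medians 1.81, 1.17 and 1.11) and the ATF4, snoRNA host and amino acid transporter genes to the left (-1.97, -1.38 and -1.35), at similar places in both sets of libraries.

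Among the lists with at least 10 tested members, the ATF4 programme had the lowest median. Of 31 members, all tested, 26 were called higher in sihnRNPA2B1-NC, 1 was called higher in siDRAIC-NC and 4 did not pass, with a median log2 fold change of -1.97 against 0.01 for all genes and 24.8% of all genes called in that direction. The counts stayed at 26 and 1 without siDRAIC-NC replicate 1. In the siRNA libraries 25 of 30 tested members were called higher in sihnRNPA2B1, 0 higher in siDRAIC, and the median was -1.99. ATF4 itself gave 400.2, 515 and 437 CPM in siDRAIC-NC and 793, 777 and 777 CPM in sihnRNPA2B1-NC, 1.74-fold higher in sihnRNPA2B1-NC (log2 fold change -0.78, SE 0.14, edgeR adjusted p = 0.00175). ATF3 (ENSG00000162772, chromosome 1, 212565334 to 212620777, plus strand), a stress-induced transcription factor, gave 7.67, 10.1 and 7.42 CPM in siDRAIC-NC and 228, 237 and 218 CPM in sihnRNPA2B1-NC, 27.1-fold higher in sihnRNPA2B1-NC (log2 fold change -4.74, SE 0.18, edgeR adjusted p = 1.10e-06). DDIT3 (ENSG00000175197, chromosome 12, 57516588 to 57521737, minus strand), which encodes the pro-apoptotic factor CHOP, gave 6.25, 5.21 and 6.005 CPM in siDRAIC-NC and 76.5, 77.1 and 75.004 CPM in sihnRNPA2B1-NC and was 13.1-fold higher in sihnRNPA2B1-NC (log2 fold change -3.70, SE 0.13, edgeR adjusted p = 1.10e-06). The lowest sihnRNPA2B1-NC library stood far above the highest siDRAIC-NC library for ATF3 and DDIT3. Exons of DDIT3 overlap those of MARS and MBD6, and the labels do not state how shared reads were assigned.

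The downstream genes showed the same order. TRIB3, a pseudokinase that feeds back on the pathway, gave 169.8, 229 and 198 CPM in siDRAIC-NC and 1014, 1066 and 932 CPM in sihnRNPA2B1-NC (log2 fold change -2.32, SE 0.16, edgeR adjusted p = 1.11e-05). SESN2, a sestrin that senses leucine and restrains mTORC1, gave 31.4, 32.5 and 29.97 CPM in siDRAIC-NC and 208, 217 and 186 CPM in sihnRNPA2B1-NC (log2 fold change -2.69, SE 0.13, edgeR adjusted p = 3.13e-06). DDIT4, another mTORC1 inhibitor, gave 26.4, 16.6 and 13.3 CPM in siDRAIC-NC and 298, 327 and 269 CPM in sihnRNPA2B1-NC, 15.9-fold higher in sihnRNPA2B1-NC (log2 fold change -3.99, SE 0.22, edgeR adjusted p = 5.08e-06). In each of these 3 genes the groups were fully separate. The secreted stress hormone GDF15 gave 92.1, 129 and 121 CPM in siDRAIC-NC and 1030.0, 1096 and 993 CPM in sihnRNPA2B1-NC (log2 fold change -3.17, SE 0.18, edgeR adjusted p = 5.14e-06). ASNS, asparagine synthetase, was low throughout, with 1.59, 0.977 and 0.979 CPM in siDRAIC-NC and 11.4, 11.7 and 11.01 CPM in sihnRNPA2B1-NC (log2 fold change -3.27, SE 0.21, edgeR adjusted p = 7.92e-06). CHAC1, which degrades glutathione, gave 10.4, 13.4 and 8.87 CPM in siDRAIC-NC and 72.02, 74.1 and 65.8 CPM in sihnRNPA2B1-NC (log2 fold change -2.68, SE 0.19, edgeR adjusted p = 1.05e-05). All 3 were again separate between the groups. FGF21, a secreted hormone, had 0 summed counts in siDRAIC-NC and 38 in sihnRNPA2B1-NC, at least 13.6-fold higher against a floor of 3 counts over the group, and the list median is -1.97 with FGF21 set at that bound too.

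The ATF4 list holds aminoacyl-tRNA synthetases, which charge tRNAs. AARS1, CARS1, GARS1, SARS1 and WARS1 were each higher in sihnRNPA2B1-NC, with log2 fold changes of -1.34, -1.65, -1.56, -1.97 and -2.17. Serine synthesis was split. PHGDH and PSAT1, its first steps, were higher in sihnRNPA2B1-NC (log2 fold changes -2.25 and -0.99). PSPH, the last step, was the 1 member called higher in siDRAIC-NC, with 115, 101 and 103 CPM in siDRAIC-NC and 77.6, 79.9 and 79.2 CPM in sihnRNPA2B1-NC (log2 fold change 0.44, SE 0.11, edgeR adjusted p = 0.00783), and it lost that call without sihnRNPA2B1-NC replicate 1 (edgeR adjusted p = 0.0599). SHMT2, CTH, ALDH1L2 and EIF2AK3 did not pass the test.

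Amino acid uptake went with it. Of 17 listed transporters 13 were tested, 9 called higher in sihnRNPA2B1-NC and 2 higher in siDRAIC-NC, with a median of -1.35. Across all tested genes 24.8% were called higher in sihnRNPA2B1-NC. SLC7A5 and SLC3A2 are the 2 chains of the large neutral amino acid exchanger. SLC7A5 gave 192, 369 and 234 CPM in siDRAIC-NC and 1335, 1436 and 1216 CPM in sihnRNPA2B1-NC (log2 fold change -2.30, SE 0.25, edgeR adjusted p = 1.10e-04), and SLC3A2 gave 149, 279.9 and 235 CPM in siDRAIC-NC and 1162, 1217 and 1085 CPM in sihnRNPA2B1-NC (log2 fold change -2.35, SE 0.24, edgeR adjusted p = 7.78e-05). SLC7A11, the cystine importer, gave 34.6, 12.9 and 8.56 CPM in siDRAIC-NC and 95.8, 85.2 and 101 CPM in sihnRNPA2B1-NC (log2 fold change -2.36, SE 0.40, edgeR adjusted p = 0.00124). The groups were separate for all 3, and siDRAIC-NC replicate 1 was the highest library of its group for SLC7A11. SLC1A1, a glutamate carrier, and SLC7A2, a cationic amino acid carrier, were the 2 higher in siDRAIC-NC (log2 fold changes 1.43 and 2.33), and SLC7A2 stayed below 1 CPM in all 6 libraries.

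**Figure D4:**
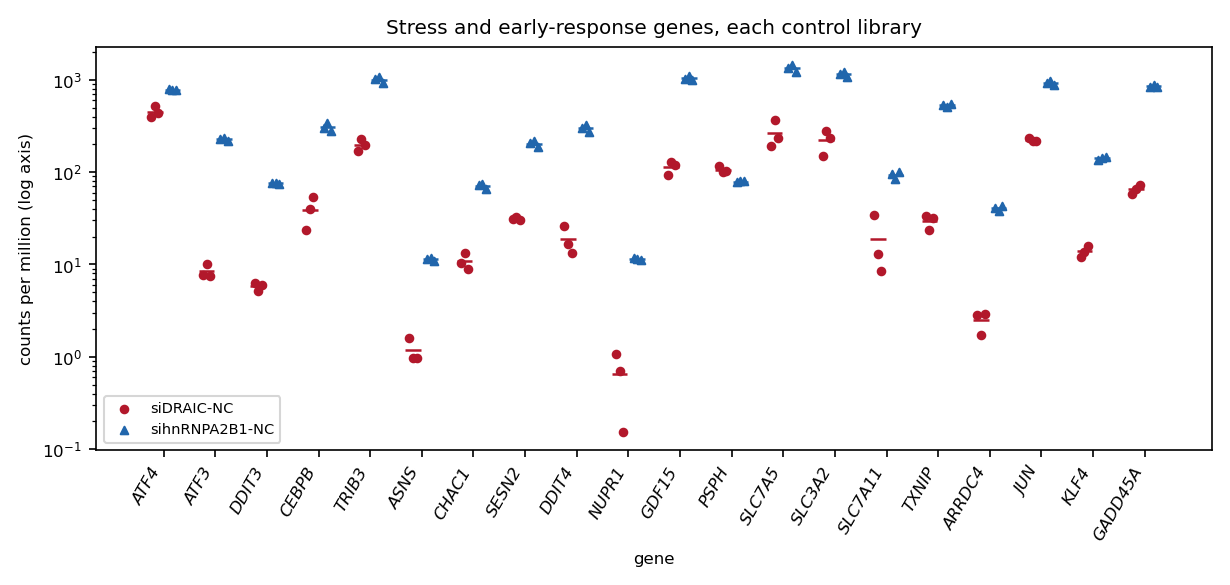
CPM on a log axis in each control library for 20 stress and early-response genes, circles for siDRAIC-NC and triangles for sihnRNPA2B1-NC, with a bar at the mean of 3 libraries. In 19 of the 20 genes the 3 sihnRNPA2B1-NC libraries lie above the 3 siDRAIC-NC libraries, and PSPH is the exception, where 59.9% of all tested genes have groups that do not overlap.

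The promoters of these genes are shown because most members were called on 1 side. Promoters of the replication, mitotic and cholesterol lists were searched too, and their shares are given below. RefSeq promoter windows (build GRCh38.p14, 250 bases before to 50 after the start) were at hand for 20 of the 24 target genes. The letters TGATGNAA, the core of the element that ATF4 binds with a C/EBP partner, were searched on both strands. They occurred in 5 of the 20 windows (25%), against 3.67% of 27195 promoters. The 5 stretches follow, 5′ to 3′ on the strand of the gene, with the match in capitals. A match on the other strand shows as the reverse complement. A match is a description and not a bound site, and the data hold no binding measurement. The searched lists were made of known genes of each programme. A share above that of all promoters therefore does not bear on the difference between the controls.
ASNS (chr7:97872449-97872496, minus strand): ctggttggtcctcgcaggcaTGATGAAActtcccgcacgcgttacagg
CHAC1 (chr15:40953242-40953289, plus strand): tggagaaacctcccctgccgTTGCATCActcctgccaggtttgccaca
FGF21 (chr19:48755450-48755497, plus strand): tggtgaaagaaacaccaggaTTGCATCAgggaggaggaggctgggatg
CARS1 (chr11:3057398-3057445, minus strand): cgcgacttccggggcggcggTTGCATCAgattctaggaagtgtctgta
AARS1 (chr16:70289666-70289713, minus strand): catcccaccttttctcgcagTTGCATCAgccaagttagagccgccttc

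The unfolded protein response list did not move as a block. Of 20 members, 7 were called higher in siDRAIC-NC and 8 higher in sihnRNPA2B1-NC, with a median of -0.13. Higher in sihnRNPA2B1-NC were HSPA5 (BiP, the main chaperone of the endoplasmic reticulum), with 815, 729 and 803 CPM in siDRAIC-NC and 1629, 1601 and 1653 CPM in sihnRNPA2B1-NC (log2 fold change -1.05, SE 0.10, edgeR adjusted p = 6.14e-05), and the signalling genes XBP1 and ERN1 (log2 fold changes -1.81 and -2.28). DNAJB9 and HERPUD1, a co-chaperone and a degradation factor, were on the same side (-1.92 and -1.29). Higher in siDRAIC-NC were the folding proteins CALR, with 818, 1109 and 1092 CPM in siDRAIC-NC and 216, 221 and 201 CPM in sihnRNPA2B1-NC (log2 fold change 2.27, SE 0.17, edgeR adjusted p = 1.50e-05), PDIA4 (log2 fold change 2.21) and SDF2L1 (2.67). The list thus held chaperones on both sides, and all 15 called members had the same direction in the siRNA libraries.

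Cytosolic chaperones were higher in siDRAIC-NC. Of 16 listed heat shock genes 14 were tested, with a median of 1.17. Called higher in siDRAIC-NC were 11, against 25.3% of all tested genes, and 0 were called higher in sihnRNPA2B1-NC. Without siDRAIC-NC replicate 1 these counts were 10 and 2. HSPA8 (ENSG00000109971, chromosome 11, 123057489 to 123063230, minus strand), the constitutive HSP70, gave 1809, 1761 and 2115 CPM in siDRAIC-NC and 294, 291 and 292 CPM in sihnRNPA2B1-NC, 6.49-fold higher in siDRAIC-NC (log2 fold change 2.71, SE 0.13, edgeR adjusted p = 3.07e-06). HSPB1, a small heat shock protein, gave 735, 964 and 811 CPM in siDRAIC-NC and 129.7, 143 and 128 CPM in sihnRNPA2B1-NC (log2 fold change 2.67, SE 0.16, edgeR adjusted p = 5.58e-06). HSP90AA1 gave 1134, 675 and 488 CPM in siDRAIC-NC and 259, 238 and 271 CPM in sihnRNPA2B1-NC (log2 fold change 1.57, SE 0.23, edgeR adjusted p = 6.06e-04). The groups did not overlap for any of the 3, and DNAJB1, HSPH1 and BAG3 lay on the same side (log2 fold changes 1.49, 1.22 and 1.19). In the siRNA libraries 10 of the 11 called members had the same direction, and CRYAB did not. HSF1, the factor that drives them, did not pass the test (log2 fold change -0.16, edgeR adjusted p = 0.47; -0.53 and 0.000374 with GC and length trends removed). The heat-inducible HSPA1A and HSPA1B were below the filter, so no fitted test of them is given. The labels do not state how reads shared between these 2 genes were assigned.

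Among the lists with at least 10 tested members, the replication genes had the highest median. Of 38 members 37 were tested, 31 called higher in siDRAIC-NC, 2 higher in sihnRNPA2B1-NC and 4 not called, with a median of 1.81 and 25.3% of all genes called in that direction. Without siDRAIC-NC replicate 1 the counts were 33 and 3. The siRNA libraries gave 31 and 2 of 37, with a median of 1.89. MCM3 and MCM4 are subunits of the replicative helicase. MCM3 gave 243, 243 and 242 CPM in siDRAIC-NC and 47.1, 48.2 and 48.01 CPM in sihnRNPA2B1-NC, 5.08-fold higher in siDRAIC-NC (log2 fold change 2.36, SE 0.11, edgeR adjusted p = 3.13e-06), and MCM4 gave 343, 302 and 317 CPM in siDRAIC-NC and 57.2, 54.7 and 55.5 CPM in sihnRNPA2B1-NC (log2 fold change 2.53, SE 0.11, edgeR adjusted p = 1.93e-06). The 6 MCM2 to MCM7 subunits had log2 fold changes of 1.59, 2.36, 2.53, 1.68, 1.23 and 1.81, all called. GINS2, a helicase cofactor, gave 37.7, 51.7 and 46.6 CPM in siDRAIC-NC and 4.16, 4.27 and 3.81 CPM in sihnRNPA2B1-NC (log2 fold change 3.50, SE 0.19, edgeR adjusted p = 5.08e-06). RRM2, the S-phase subunit of ribonucleotide reductase, gave 141, 212 and 180.4 CPM in siDRAIC-NC and 32.2, 28.9 and 26.02 CPM in sihnRNPA2B1-NC (log2 fold change 2.64, SE 0.20, edgeR adjusted p = 1.54e-05). PCNA, the sliding clamp, gave 271, 286 and 255 CPM in siDRAIC-NC and 65.1, 59.3 and 65.2 CPM in sihnRNPA2B1-NC (log2 fold change 2.11, SE 0.12, edgeR adjusted p = 5.14e-06). All 5 of these genes were separate between the groups, as were 59.9% of all tested genes.

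The cyclins and E2F factors upstream were mixed. CCNE2 gave 12.7, 10.6 and 7.73 CPM in siDRAIC-NC and 1.01, 0.432 and 1.28 CPM in sihnRNPA2B1-NC and CCNE1 had a mean of 17.3 CPM in siDRAIC-NC and 3.42 in sihnRNPA2B1-NC, both cyclins that start S phase and both higher in siDRAIC-NC (log2 fold changes 3.53 and 2.35). E2F1 gave 49.4, 69.7 and 52.8 CPM in siDRAIC-NC and 10.8, 12.4 and 9.84 CPM in sihnRNPA2B1-NC (log2 fold change 2.40, SE 0.20, edgeR adjusted p = 2.37e-05). E2F2, another activator, had 358 summed counts in siDRAIC-NC and 2 in sihnRNPA2B1-NC. The 2 members on the other side were E2F7, an atypical E2F that represses, with 88.7, 62.3 and 81.7 CPM in siDRAIC-NC and 179, 181 and 194 CPM in sihnRNPA2B1-NC (log2 fold change -1.25, SE 0.13, edgeR adjusted p = 9.31e-05), and RB1, which holds E2F in check (log2 fold change -0.68, edgeR adjusted p = 0.00447). CCND1, CDK4, CDK6 and POLA1 did not pass the test. The 14 tested genes of the replication-dependent histone list did not follow, with 0 called higher in siDRAIC-NC, 6 higher in sihnRNPA2B1-NC and a median of -0.93. Whether these reads come from transcripts made outside S phase was not tested. Histone reads made up 0.00212% to 0.00262% of siDRAIC-NC and 0.00519% to 0.00554% of sihnRNPA2B1-NC counts, so they are few, and their near-identical copies make their levels uncertain.

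Promoter windows of the replication genes are shown for the same reason as those above. The letters TTTNNCGC, an E2F core, were found on either strand in 13 of 21 windows (61.9%), against 6.92% of 27195 promoters. POLA1, which did not pass the test, held a match as well. The 5 below were picked from the 13 and are the called genes GINS2, MCM3, PCNA, CDT1 and TYMS, with the first match of each window in capitals.
GINS2 (chr16:85688958-85689005, minus strand): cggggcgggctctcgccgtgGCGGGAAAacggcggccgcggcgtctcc
MCM3 (chr6:52284889-52284936, minus strand): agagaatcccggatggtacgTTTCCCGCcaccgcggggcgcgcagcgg
PCNA (chr20:5126654-5126701, minus strand): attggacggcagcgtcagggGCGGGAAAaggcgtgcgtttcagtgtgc
CDT1 (chr16:88803556-88803603, plus strand): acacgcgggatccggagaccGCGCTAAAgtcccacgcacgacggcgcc
TYMS (chr18:657594-657641, plus strand): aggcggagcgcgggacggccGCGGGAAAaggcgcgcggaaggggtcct

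Mitotic genes differed less. Of 36 members 17 were called higher in siDRAIC-NC, 0 higher in sihnRNPA2B1-NC and 19 did not pass, with a median of 0.44. Without siDRAIC-NC replicate 1 the counts were 20 and 6. With all 6 control libraries the share called was 47.2%, near the 50.1% of all tested genes. Of all tested genes 25.3% were called higher in siDRAIC-NC. CCNB1, the mitotic cyclin, gave 227, 243 and 251 CPM in siDRAIC-NC and 89.1, 89.7 and 88.7 CPM in sihnRNPA2B1-NC (log2 fold change 1.45, SE 0.12, edgeR adjusted p = 2.67e-05), and KIF20A, a kinesin of the midzone, gave 65.8, 71.1 and 70.6 CPM in siDRAIC-NC and 17.7, 19.6 and 18.6 CPM in sihnRNPA2B1-NC (log2 fold change 1.91, SE 0.14, edgeR adjusted p = 1.20e-05). Their groups were separate. CDK1 gave 89.1, 65.1 and 61.5 CPM in siDRAIC-NC and 75.4, 69.4 and 84.5 CPM in sihnRNPA2B1-NC and did not pass (log2 fold change -0.08, SE 0.14, edgeR adjusted p = 0.643), with overlapping groups, though it was called with GC and length trends removed (log2 fold change 0.29, edgeR adjusted p = 0.0149), and TOP2A, TPX2 and ANLN did not pass either. MKI67 gave 369 CPM in siDRAIC-NC and 215 in sihnRNPA2B1-NC (log2 fold change 0.78, edgeR adjusted p = 7.82e-04). The letters TTTGAA, known as the CHR element, occurred on either strand in 20 of 31 promoter windows (64.5%), against 15.4% of 27195 promoters. The letters CCAAT occurred in 25 of 31 (80.6%), against 35.7%. CDK1 and TOP2A, which did not pass the test, held both.

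Most genes that mark growth arrest, and most listed p53 targets, were on the side of sihnRNPA2B1-NC. GADD45A (ENSG00000116717, chromosome 1, 67685061 to 67688338, plus strand), a stress-induced checkpoint gene, gave 57.8, 65.03 and 72.4 CPM in siDRAIC-NC and 838, 874 and 830.4 CPM in sihnRNPA2B1-NC, 13.02-fold higher in sihnRNPA2B1-NC (log2 fold change -3.68, SE 0.15, edgeR adjusted p = 1.43e-06). CDKN1A, the p21 inhibitor of cyclin-dependent kinases, gave 731, 832 and 868 CPM in siDRAIC-NC and 1505, 1549 and 1459 CPM in sihnRNPA2B1-NC (log2 fold change -0.87, SE 0.13, edgeR adjusted p = 5.75e-04). The groups were separate for both genes. GADD45A belongs to the p53 target list and not to the growth arrest list. Of 20 tested p53 targets 13 were called higher in sihnRNPA2B1-NC and 0 higher in siDRAIC-NC, with a median of -0.79. Over all genes 24.8% were called in that direction. Without siDRAIC-NC replicate 1 the p53 target counts were 14 and 1. Of 12 tested growth arrest genes 8 were called higher in sihnRNPA2B1-NC, among them GADD45B, BTG1 and CDKN1B (log2 fold changes -2.61, -1.98 and -0.64), and CDKN2C was the 1 on the other side (2.69). With siDRAIC-NC replicate 1 left out, 9 of 13 were called higher in sihnRNPA2B1-NC and 3 higher in siDRAIC-NC.

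Most sterol genes were higher in siDRAIC-NC. Of 28 members, all tested, 24 were called higher in siDRAIC-NC, 0 higher in sihnRNPA2B1-NC and 4 did not pass, with a median of 1.11. Without siDRAIC-NC replicate 1 the counts were 25 and 1, and the siRNA libraries gave 22 and 1 of 28. Among all tested genes 25.3% were called higher in siDRAIC-NC. SREBF2, the sterol-regulated factor, gave 353, 229.6 and 305 CPM in siDRAIC-NC and 141, 144 and 128 CPM in sihnRNPA2B1-NC (log2 fold change 1.10, SE 0.14, edgeR adjusted p = 2.92e-04). LSS, which folds the chain into the first sterol, gave 45.5, 22.97 and 35.4 CPM in siDRAIC-NC and 8.702, 8.66 and 8.48 CPM in sihnRNPA2B1-NC (log2 fold change 2.00, SE 0.21, edgeR adjusted p = 8.47e-05). DHCR7, which makes cholesterol in the last step, gave 138, 110.1 and 156 CPM in siDRAIC-NC and 19.8, 20.8 and 19.8 CPM in sihnRNPA2B1-NC, 6.68-fold higher in siDRAIC-NC (log2 fold change 2.75, SE 0.15, edgeR adjusted p = 5.08e-06). The groups were separate for all 3. MVK, an early kinase of the path, had a log2 fold change of 2.22. SCAP, TM7SF2, SC5D and INSIG2 did not pass. The letters TCACNCCA, a sterol regulatory core, occurred on either strand in 2 of 15 promoter windows of the enzymes (13.3%), against 3.93% of 27195 promoters. Of 18 fatty acid and storage genes 11 were called higher in siDRAIC-NC, led by SCD and FASN (log2 fold changes 1.61 and 1.55), and PLIN2, a lipid droplet coat, was the 1 on the other side (-0.63). These counts were 12 and 2 without siDRAIC-NC replicate 1. The SCD libraries of siDRAIC-NC were uneven, at 1563, 534 and 746 CPM.

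**Figure D5:**
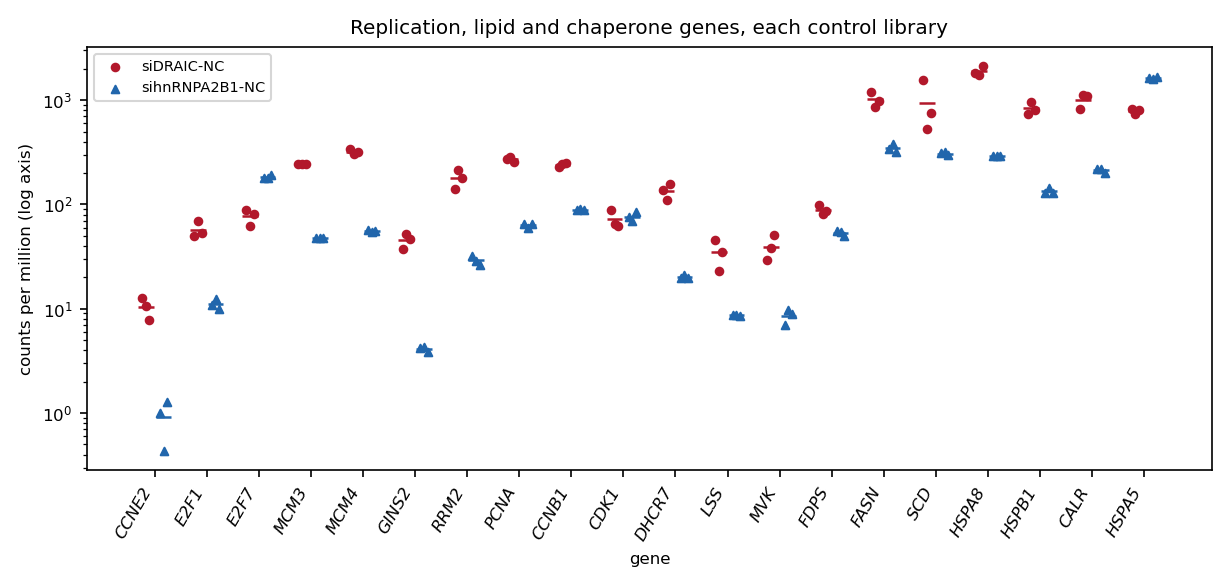
CPM on a log axis in each control library for 20 replication, lipid and chaperone genes, circles for siDRAIC-NC and triangles for sihnRNPA2B1-NC, with a bar at the mean of 3 libraries. The siDRAIC-NC libraries lie above in 17 genes, E2F7 and HSPA5 lie the other way, and the CDK1 libraries overlap, where 59.9% of all tested genes have groups that do not overlap.

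Immediate early genes and their feedback inhibitors were on the side of sihnRNPA2B1-NC. Of 28 tested members 23 were called higher there and 1 higher in siDRAIC-NC, with a median of -0.94, and the counts were the same without siDRAIC-NC replicate 1. The share of all tested genes called higher in sihnRNPA2B1-NC was 24.8%. JUN, a subunit of AP-1, gave 233, 220.1 and 216 CPM in siDRAIC-NC and 923, 979.8 and 879 CPM in sihnRNPA2B1-NC (log2 fold change -2.04, SE 0.11, edgeR adjusted p = 5.02e-06). KLF4 gave 12.01, 13.6 and 16.004 CPM in siDRAIC-NC and 135, 141 and 147 CPM in sihnRNPA2B1-NC, 10.1-fold higher in sihnRNPA2B1-NC (log2 fold change -3.32, SE 0.17, edgeR adjusted p = 3.48e-06). MYC gave 219, 230.1 and 249 CPM in siDRAIC-NC and 665, 693 and 646 CPM in sihnRNPA2B1-NC (log2 fold change -1.50, SE 0.12, edgeR adjusted p = 2.37e-05). None of these 3 overlapped between groups. DUSP1, a phosphatase that ends MAP kinase signalling, was likewise higher (147 CPM in siDRAIC-NC and 698 in sihnRNPA2B1-NC, log2 fold change -2.22). FOS, among the most transient of the class, gave 0.612 CPM in siDRAIC-NC and 0.761 in sihnRNPA2B1-NC and did not pass the test. ETV4 was the member on the other side (log2 fold change 1.09).

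YAP and TEAD, which respond to cell density and tension, were followed through 22 genes, of which 14 were called higher in sihnRNPA2B1-NC and 3 higher in siDRAIC-NC, with a median of -0.89. All tested genes gave 24.8% called higher in sihnRNPA2B1-NC and 25.3% higher in siDRAIC-NC. Of the 17 listed as targets 12 were called higher in sihnRNPA2B1-NC and 1 higher in siDRAIC-NC, and of the 7 kinases and coactivators, of which 2 are also listed as targets, 4 and 2. ANKRD1 gave 6.93, 9.19 and 11.3 CPM in siDRAIC-NC and 69.97, 66.3 and 79.01 CPM in sihnRNPA2B1-NC (log2 fold change -2.94, SE 0.21, edgeR adjusted p = 1.34e-05), CCN1 gave 659, 569.8 and 499 CPM in siDRAIC-NC and 1701, 1775 and 1716 CPM in sihnRNPA2B1-NC (log2 fold change -1.58, SE 0.11, edgeR adjusted p = 1.32e-05), and AJUBA gave 144, 174 and 153 CPM in siDRAIC-NC and 657, 696 and 604 CPM in sihnRNPA2B1-NC (log2 fold change -2.04, SE 0.14, edgeR adjusted p = 1.05e-05). ANKRD1 and CCN1 are known YAP targets, AJUBA is an adaptor that restrains the LATS kinases, and the groups were separate for all 3. CCN2 was low (3.595 CPM in siDRAIC-NC and 7.54 in sihnRNPA2B1-NC) and differed by a log2 fold change of -1.05, against 0.65 in the siRNA libraries. NF2, an upstream restrainer of YAP, was higher in siDRAIC-NC (1.38). Actin and SRF genes were split, with 7 of 16 called higher in siDRAIC-NC and 4 higher in sihnRNPA2B1-NC.

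Nutrient sensing showed single large differences. TXNIP (ENSG00000265972, chromosome 1, 145992435 to 145996600, minus strand), an arrestin that limits glucose uptake and is induced by glucose through the factor MondoA, gave 33.8, 23.5 and 31.8 CPM in siDRAIC-NC and 528, 506 and 554 CPM in sihnRNPA2B1-NC, 17.8-fold higher in sihnRNPA2B1-NC (log2 fold change -4.15, SE 0.15, edgeR adjusted p = 1.10e-06). ARRDC4, its closest relative, gave 2.87, 1.73 and 2.94 CPM in siDRAIC-NC and 41.2, 37.98 and 42.6 CPM in sihnRNPA2B1-NC (log2 fold change -4.01, SE 0.20, edgeR adjusted p = 4.20e-06). Both genes were separate between groups. Of the 8 glucose sensing genes 3 were called higher in sihnRNPA2B1-NC and 1 higher in siDRAIC-NC, or 3 and 2 without siDRAIC-NC replicate 1. Glycolytic enzymes were on the other side, with 11 of 18 called higher in siDRAIC-NC, 2 higher in sihnRNPA2B1-NC and a median of 0.49. Across all tested genes 25.3% were called higher in siDRAIC-NC and 24.8% higher in sihnRNPA2B1-NC. TPI1 and PGAM1 had log2 fold changes of 1.05 and 1.18, while HK2 was higher in sihnRNPA2B1-NC (-0.78). Of 23 tested HIF targets 14 were called higher in sihnRNPA2B1-NC and 3 higher in siDRAIC-NC. VEGFA, the angiogenic factor, gave 67.4, 81.9 and 90.97 CPM in siDRAIC-NC and 501, 492 and 461 CPM in sihnRNPA2B1-NC (log2 fold change -2.58, SE 0.16, edgeR adjusted p = 7.27e-06), and CA12, a carbonic anhydrase, went the other way (165 CPM in siDRAIC-NC and 33.2 in sihnRNPA2B1-NC, log2 fold change 2.33), though not in the siRNA libraries (-0.15).

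Clock genes differed as a set of counts. Of 16 tested, 13 were called higher in sihnRNPA2B1-NC and 1 higher in siDRAIC-NC, with a median of -1.06, and without siDRAIC-NC replicate 1 the counts did not change. Among all tested genes 24.8% were called higher in sihnRNPA2B1-NC. BMAL1, the activator, gave 12.6, 6.74 and 12.8 CPM in siDRAIC-NC and 49.2, 45.8 and 49.5 CPM in sihnRNPA2B1-NC (log2 fold change -2.16, SE 0.22, edgeR adjusted p = 7.48e-05), and PER2, a repressor, gave 3.41, 5.03 and 6.44 CPM in siDRAIC-NC and 18.96, 21.9 and 20.7 CPM in sihnRNPA2B1-NC (log2 fold change -2.02, SE 0.25, edgeR adjusted p = 1.96e-04). NPAS2, an activator paralogous to CLOCK, was the 1 on the other side (log2 fold change 1.24). Activators and repressors were therefore higher in the same libraries. Of 12 tested glucocorticoid-responsive genes 8 were higher in sihnRNPA2B1-NC, among them SGK1 (log2 fold change -1.57, against 0.45 in the siRNA libraries), and FKBP5, a textbook target, was higher in siDRAIC-NC (1.21).

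Host genes of small nucleolar RNAs were higher in sihnRNPA2B1-NC. Of 16, 11 were called on that side and SNHG16 on the other, with a median of -1.38, or 12 and 2 without siDRAIC-NC replicate 1. All tested genes gave 24.8% called higher in sihnRNPA2B1-NC and 25.3% higher in siDRAIC-NC. GAS5, whose RNA is degraded when it is translated, gave 202, 219.9 and 194 CPM in siDRAIC-NC and 778, 781 and 792 CPM in sihnRNPA2B1-NC (log2 fold change -1.92, SE 0.12, edgeR adjusted p = 6.52e-06), and SNHG1 gave 68.2, 85.8 and 84.04 CPM in siDRAIC-NC and 306, 299 and 311 CPM in sihnRNPA2B1-NC (log2 fold change -1.92, SE 0.15, edgeR adjusted p = 1.62e-05). Both were separate between groups. The share of all counts from long non-coding RNA genes was 0.706% to 0.888% in siDRAIC-NC and 1.07% to 1.13% in sihnRNPA2B1-NC, without overlap. Ribosomal protein genes differed little, with 11 of 48 called higher in siDRAIC-NC, 4 higher in sihnRNPA2B1-NC and a median of 0.21. Without siDRAIC-NC replicate 1, 31 and 7 were called.

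The single genes with the smallest p were chosen for their difference and are described as such. CLDN2 (ENSG00000165376, chromosome X, 106900164 to 106930861, plus strand), a tight junction protein that forms a pore for cations in the proximal tubule, gave 606, 733 and 699 CPM in siDRAIC-NC and 32.3, 35.7 and 32.3 CPM in sihnRNPA2B1-NC, 20.3-fold higher in siDRAIC-NC (log2 fold change 4.36, SE 0.16, edgeR adjusted p = 1.10e-06). DPYSL3, which regulates the cytoskeleton, gave 2768, 2311 and 2310.1 CPM in siDRAIC-NC and 343, 352 and 344 CPM in sihnRNPA2B1-NC, 7.11-fold higher (log2 fold change 2.84, SE 0.11, edgeR adjusted p = 1.10e-06). The other 10 of the 12 genes named on this side were CDH6, MCM3, MCM4 and HSPA8, given above, and PCLAF, PEG10, TNFSF10, IDH2, PCSK5 and HTR1D. PCLAF, a partner of PCNA, had a log2 fold change of 4.20. IDH2, the mitochondrial isocitrate dehydrogenase, had 2.45, and TNFSF10, the death ligand TRAIL, had 3.54. Values of PEG10, PCSK5 and HTR1D were 3.14, 2.68 and 3.17.

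On the side of sihnRNPA2B1-NC the smallest p belonged to MAP1LC3B (ENSG00000140941, chromosome 16, 87383995 to 87404779, plus strand), which encodes the LC3 protein of autophagosomes. It gave 51.99, 43.01 and 45.7 CPM in siDRAIC-NC and 484, 491 and 479 CPM in sihnRNPA2B1-NC, 10.3-fold higher in sihnRNPA2B1-NC (log2 fold change -3.36, SE 0.11, edgeR adjusted p = 1.10e-06). The autophagy and lysosome list was split, with 8 of 27 called higher in siDRAIC-NC and 9 higher in sihnRNPA2B1-NC. Of 11 autophagy genes and factors, MAP1LC3B among them, 7 were called higher in sihnRNPA2B1-NC and 0 higher in siDRAIC-NC. Of 16 tested lysosome genes, 2 were called higher in sihnRNPA2B1-NC and 8 higher in siDRAIC-NC. Exons of MAP1LC3B overlap those of FBXO31. CD55, which protects cells from complement, gave 7.04, 5.29 and 5.77 CPM in siDRAIC-NC and 68.6, 67.5 and 76.7 CPM in sihnRNPA2B1-NC, 11.8-fold higher in sihnRNPA2B1-NC (log2 fold change -3.55, SE 0.14, edgeR adjusted p = 1.43e-06). ITGB2, an integrin chain known from leukocytes, gave 0.227, 0.225 and 0.206 CPM in siDRAIC-NC and 11.7, 9.68 and 12.1 CPM in sihnRNPA2B1-NC (log2 fold change -5.63, SE 0.23, edgeR adjusted p = 1.43e-06). No siDRAIC-NC library of these genes came near a sihnRNPA2B1-NC library, and the leukocyte marker PTPRC stood at 0.0568 CPM in siDRAIC-NC and 0.0447 in sihnRNPA2B1-NC. The rest of the 12 on this side were TXNIP, DDIT3, ATF3 and GADD45A, given above, and LURAP1L, DYSF, RPS6KA2, KCNH1 and PRKCE, with log2 fold changes of -3.55, -3.92, -5.66, -3.68 and -3.44.

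A few genes were on in one group and close to off in the other, with at most 3 summed counts on one side and at least 1 CPM in every library of the other. On in siDRAIC-NC were E2F2 (358 against 2 summed counts), NRGN (329 against 3) and TMEM213 (240 against 2). On in sihnRNPA2B1-NC were KLHDC7B (391 against 0), PRPH (342 against 2), CRYBG2 (210 against 0) and the lincRNA ENSG00000250509 (120 against 2). KLHDC7B was at least 139.9-fold and CRYBG2 at least 75.2-fold higher, against a floor of 3 counts over the group. The ratio for E2F2, an activator of replication genes, was 167, with an exact 95% interval of 45.8 to 1382 for counting error only. PRPH, the intermediate filament peripherin of neurons, had a ratio of 184 (50.4 to 1522). These 7 genes kept their direction in the siRNA libraries, where E2F2 gave 3.05, 3.69 and 2.595 CPM in siDRAIC and 0.117, 0.0508 and 0.156 CPM in sihnRNPA2B1 and KLHDC7B gave 0, 0.0468 and 0 CPM in siDRAIC and 3.79, 5.44 and 3.98 CPM in sihnRNPA2B1.

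Surface and matrix genes were higher on either side. EGFR, the epidermal growth factor receptor, gave 523, 379 and 466 CPM in siDRAIC-NC and 1722, 1715 and 1789.5 CPM in sihnRNPA2B1-NC (log2 fold change -1.93, SE 0.12, edgeR adjusted p = 7.17e-06), while FGFR3 and FGFR4 were higher in siDRAIC-NC (log2 fold changes 2.19 and 1.59). Of 15 tested receptor tyrosine kinases 7 were higher in siDRAIC-NC and 6 higher in sihnRNPA2B1-NC. SNAI2, a repressor of epithelial genes, gave 1.76, 1.23 and 2.37 CPM in siDRAIC-NC and 36.8, 33.7 and 38.3 CPM in sihnRNPA2B1-NC (log2 fold change -4.33, SE 0.23, edgeR adjusted p = 5.02e-06), and its relative SNAI1 went the other way (3.31 CPM in siDRAIC-NC and 0.443 in sihnRNPA2B1-NC, log2 fold change 2.90). The matrix proteases PLAU and PLAT were higher in siDRAIC-NC (1.58 and 2.95), within a list of 10 of 15 on that side. Of 24 tested NF-kB targets and cytokines 11 were called higher in sihnRNPA2B1-NC and 5 higher in siDRAIC-NC, or 13 and 8 without siDRAIC-NC replicate 1. The cytokines CXCL8 and IL6 were among the former (-4.25 and -3.59) and the adhesion molecule VCAM1 among the latter (3.56). OAS3, of the interferon response, was higher in siDRAIC-NC (2.15), with 12 of 33 on that side and 5 on the other, or 12 and 10 without siDRAIC-NC replicate 1. Its share called was 51.5%, near the 50.1% of all genes.

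Gene properties moved with the difference. With the tested genes divided into 5 equal bins by GC content, the median log2 fold change was -0.37, -0.16, 0.04, 0.24 and 0.35 from the lowest to the highest bin. In 5 bins of exon length it was 0.13, 0.17, 0.04, -0.07 and -0.21. With both trends taken out of each library, 8837 genes were called and 6963 of the 7951 kept their call and direction. The ATF4 counts were then 1 and 27, the replication counts 32 and 3, the cholesterol counts 25 and 0 and the heat shock counts 11 and 1, in the order siDRAIC-NC and sihnRNPA2B1-NC. For hnRNP and SR proteins the same step lowered those called higher in sihnRNPA2B1-NC from 11 to 5, for the extracellular matrix it raised them from 5 to 10, and CD70 lost its call (edgeR adjusted p = 0.301). By chromosome the medians ran from -0.27 (chromosome 13) to 0.20 (chromosome 22). The part that base composition or RNA quality has in single genes was not tested.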

How the data were processed

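RNA-seq counts per gene were taken as the authors deposited them, 1 table per experiment with 6 libraries each. Per the submitters' processing notes, hg38, fastp 0.23.2, STAR 2.7.10a, StringTie and DESeq2 were used, in no stated role. Some items are not reported here. Counting program, annotation and strand setting: not given in the sources used here. All 60617 rows named a gene, and no column was left unused. Genes were located with GENCODE 29 on GRCh38, which held 58542 of the IDs.

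The control groups were compared with edgeR 4.0.16 (limma 3.58.1, R 4.3.3): filterByExpr with a minimum count of 10, TMM scaling, the quasi-likelihood test and Benjamini-Hochberg adjustment over all 15868 tested genes, called below 0.05. The siRNA libraries were fitted apart in the same way. The code was tested on simulated data. A floor of 3 counts equalled 0.0751 to 0.0974 CPM. A single value compared by an exact permutation test over 3 against 3 libraries cannot go below 0.10, so none is given. Intervals and floors cover counting error only. Chi-square statistics of the counts showed no pair of control libraries within sampling noise, so each was counted as 1 library.

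The members and gene lists were chosen with earlier results of these data known. Genes are named by these rules: up to 12 per direction with the smallest p that differed at least 2-fold without overlap and reached 2 CPM, genes on in one group and off in the other, the 12 most abundant per length, the title and identity genes, up to 5 called members per list and direction, and further list members with their values. The alternatives were DESeq2 1.42.0, RLE scaling, limma-voom, other filters, all 12 libraries in 1 fit, a block for the replicate number, GC and length trends removed, each library left out and, chosen after seeing the data, scaling by library totals.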

Additional observations from a re-analysis of the deposited data

How the results depend on the processing

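Of 7951 genes called between the controls, none called again under any alternative had turned its direction. The count was 7920 with RLE scaling, 8223 with DESeq2, 8089 with limma-voom, 8300 without the filter on low counts, 7320 with at least 1 CPM in 3 libraries, 8827 with all 12 libraries in 1 fit, 7754 with library totals and 8837 with GC and length trends removed. Asking for at least 2-fold left 3948 (2085 higher in siDRAIC-NC and 1863 higher in sihnRNPA2B1-NC) and, for the siRNA libraries, 4006 (2060 and 1946). Leaving out 1 library gave 5860 to 10376 calls, and 7239 to 9710 for the siRNA libraries. Same-numbered control libraries deviated together with correlations of -0.0173, 0.117 and -0.0987, so the numbers do not pair the libraries, and the fit with the replicate number as a block called 7661 genes, or 8687 for the siRNA libraries. Of 394 named genes tested, 382 were called and 332 of these were called in every setting. Most were named because they were called, many with the smallest p, so these counts do not stand for all called genes. The estimates that turned sign belonged to genes that were not called: KRT19 (-1.44) moved to 0.58 with limma-voom. With 1 library left out, KRT19 ran from -2.003 to 2.58 (highest without sihnRNPA2B1-NC replicate 3), PAX8 from -0.12 to 0.0493 and HSF1 from -0.30 to 0.0205 (both highest without siDRAIC-NC replicate 1). CDK1 turned to 0.29 with GC and length trends removed. The causes were not tested. Of the named genes tested, 189 have exons that overlap those of another gene.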
